A study of Mus musculus with 8 samples.

Results

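Messenger RNA of 41 genes that encode neuropeptide precursors or granins was examined in brain lysates of adult male mice. The genes were chosen by name, 35 as precursors of neuropeptides or related secreted peptides and 6 as granins and related proteins of the secretory granule. Of the 41, 40 had a probe set that the platform annotation pairs with that gene symbol alone, and each of these 40 had a single such probe set. They are 40 of the 19938 genes that could be named in this way, and Agrp, the precursor of agouti-related peptide, was not matched. The study compared brains with and without tumour necrosis factor (TNF), an inflammatory cytokine. It used 8 Affymetrix Mouse Gene 1.0 ST arrays, each hybridised with total RNA of a separate biological replicate. Of these, 4 were labelled TNF-/-, for mice without TNF and with no strain, allele or promoter named, and 4 were labelled TNF+/+, for wild-type C57BL/6 mice. All mice were males aged 2 to 4 months with no treatment labelled, and the labels do not say which parts of the brain entered a lysate.

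Neuropeptides are made as long precursors, cut and trimmed inside the regulated secretory pathway, stored in dense core vesicles and released on strong or repeated firing. Granins are acidic proteins that help to load and form these vesicles, and some are themselves cut into active peptides. Many neuropeptide genes are expressed by small groups of neurons. Oxytocin, vasopressin, hypocretin and melanin-concentrating hormone come from cells of the hypothalamus, enkephalin, dynorphin and substance P are abundant in the striatum, and somatostatin, neuropeptide Y and cholecystokinin mark neurons of the cortex and hippocampus. A signal from a brain lysate therefore depends both on how much of each region is in it and on the RNA content of the cells, and fewer cells of a type cannot be told apart from less RNA per cell.

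Array medians lay between 5.03 and 5.11 on the log2 scale on which the authors deposited their signals. Tnf itself, the gene said to be missing, was brighter where the label says it is absent: it read 5.92 ± 0.22 in the arrays labelled TNF-/- and 4.53 ± 0.29 in those labelled TNF+/+ (SD, n = 4 each; limma, adjusted p = 0.0278), a call kept in 1 of 8 fits that each left out an array. No source used here tells where its probes lie relative to the deleted part, so all directions below are those of arrays as labelled. TNF+/+ array 1 stood apart in markers of the cerebellum, with a list mean of 6.46 over 8 measured genes, whereas the arrays labelled TNF-/- had 4.61 to 4.78 and the other 3 TNF+/+ arrays 4.65 to 4.76. TNF+/+ arrays 3 and 4 stood apart on the first principal component of all probe sets, with scores of 22.05 and 37.22, against -4.29 or lower in the other 6. Genes common to most neurons were bright in every array, with list means of 10.49 to 10.58 under TNF-/- and 10.44 to 10.56 under TNF+/+. All 8 measured markers of the pituitary gland lay below the median probe set signal of 5.08, with list means of 3.77 to 3.77 and 3.80 to 3.86.

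No neuropeptide or granin gene passed the test between the genotypes. Limma, a linear model with moderated variances, called 0 of the 40 at a Benjamini-Hochberg adjusted p under 0.05, against 10 of all 19938 genes (0.0502%) and 29 of all 35556 probe sets (0.0816%). SAM, the permutation method that the study's design text names, also called 0 members, against 22 of all genes (0.11%). Before adjustment 5 of 40 members (12.5%) had a p under 0.05, beside 11.7% of all genes. The precursor genes Cartpt and Pnoc and the granins Scg2 and Scg5 were the 4 with higher signal under TNF-/-, a direction that 7.37% of all genes had at that level, and Cort was the 1 with lower signal (4.28% of all genes). This count was 3 without TNF-/- array 3, without TNF-/- array 4 or without TNF+/+ array 1. The 4 values of each group did not overlap for 2 of 40 members (5%), beside 7.66% of all genes. Both were higher under TNF-/-, as were 4.16% of all genes, while 3.5% of all genes were lower without overlap. Differences were positive for 21 members and negative for 19, with a median of 0.03, beside -0.01 over all genes. By signal, 25 members lay above the median probe set and 15 below it. Of those 25, 56% had positive differences, with a median of 0.03. Among all genes above the median probe set these were 64.4% and 0.05.

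**Figure D1:**
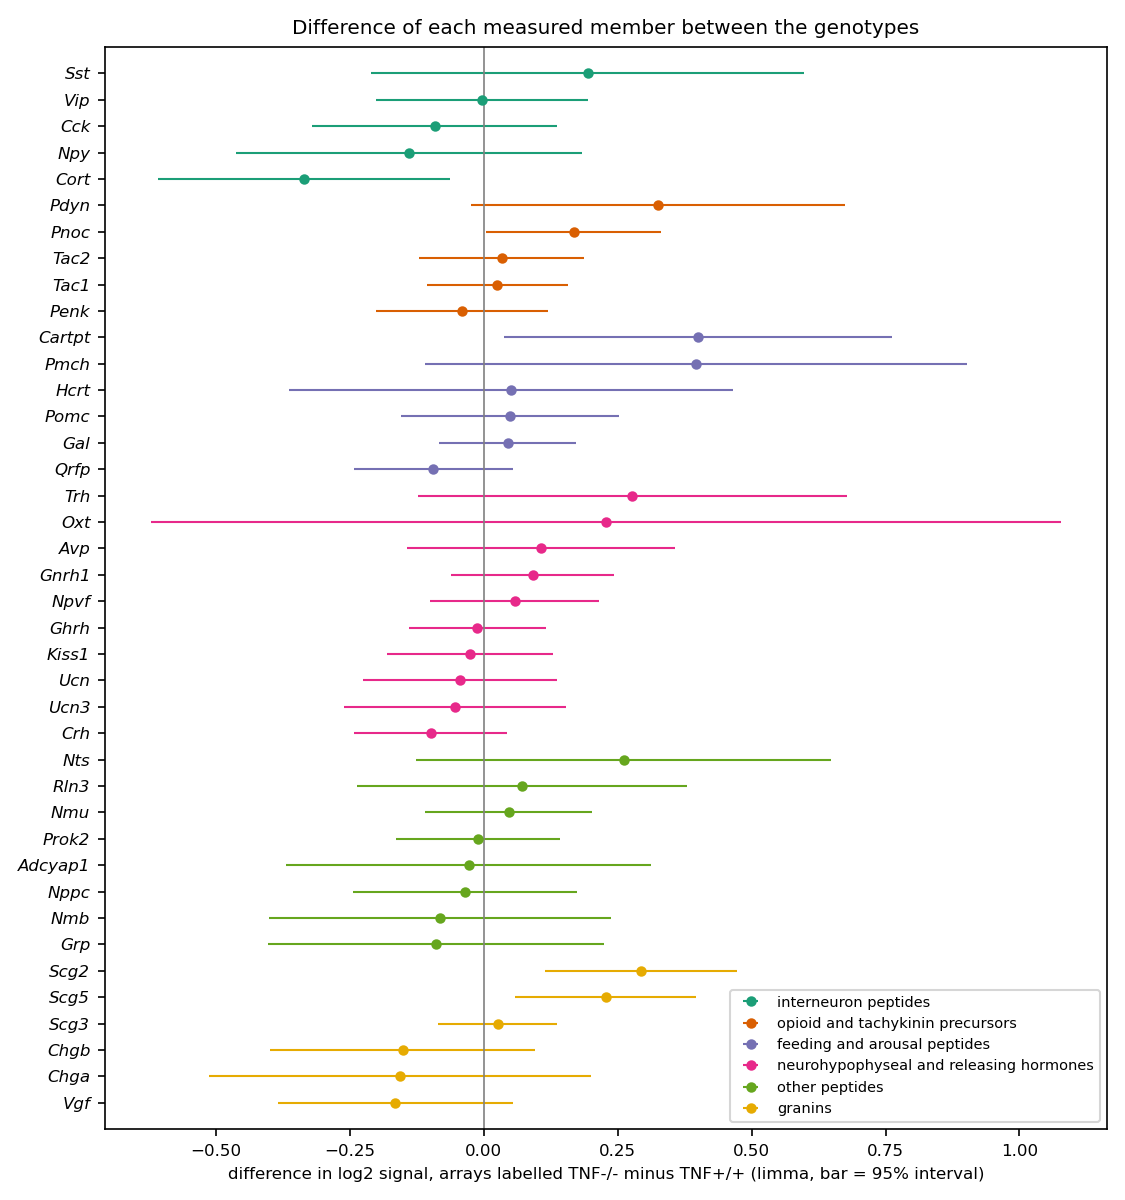
Difference in log2 signal of each of the 40 measured members (rows, coloured by role), arrays labelled TNF-/- minus arrays labelled TNF+/+; points are limma estimates and bars their 95% intervals (4 arrays per group). The intervals of Cartpt, Pnoc, Scg2 and Scg5 lie above 0 and that of Cort below it, before adjustment for the number of probe sets, and that of Oxt runs from -0.62 to 1.08.

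The 6 granin genes did not move together. Scg2 and Scg5 were higher in the arrays labelled TNF-/- with no overlap of single arrays, Chga, Chgb and Vgf had lower means there, and Scg3 was level. Vgf had the lowest difference of the 6 and has no promoter in the table used. For the granins with the 2 highest differences, Scg2 and Scg5, and the chromogranins Chga and Chgb, which come next to Vgf at the low end, the 250 bases before the gene's start are printed from RefSeq (GRCm38.p6, 5′ to 3′ on the gene's strand), because neuroendocrine promoters are known for the cyclic AMP response element (CRE). Capitals mark its 8 letters TGACGTCA, which read the same on both strands, or the 5-letter core TGACG where only the core is present. The windows are chr1:79440027-79440276, minus strand; chr2:113829092-113829341, minus strand; chr12:102554691-102554940, plus strand; and chr2:132781392-132781641, plus strand.
Scg2: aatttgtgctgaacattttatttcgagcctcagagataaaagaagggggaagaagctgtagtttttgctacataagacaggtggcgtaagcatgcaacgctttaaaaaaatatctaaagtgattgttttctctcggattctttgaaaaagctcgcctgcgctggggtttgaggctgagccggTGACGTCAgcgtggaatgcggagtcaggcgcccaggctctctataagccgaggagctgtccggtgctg
Scg5: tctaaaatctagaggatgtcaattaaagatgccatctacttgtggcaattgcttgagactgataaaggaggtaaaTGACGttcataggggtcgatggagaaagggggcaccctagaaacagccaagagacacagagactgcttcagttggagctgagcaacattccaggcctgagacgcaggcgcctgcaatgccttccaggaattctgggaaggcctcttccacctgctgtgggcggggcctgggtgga
Chga: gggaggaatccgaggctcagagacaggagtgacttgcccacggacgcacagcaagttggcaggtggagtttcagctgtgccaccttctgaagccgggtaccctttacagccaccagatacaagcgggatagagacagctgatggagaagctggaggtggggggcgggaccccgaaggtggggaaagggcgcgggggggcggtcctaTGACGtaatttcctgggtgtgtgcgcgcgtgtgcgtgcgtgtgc
Chgb: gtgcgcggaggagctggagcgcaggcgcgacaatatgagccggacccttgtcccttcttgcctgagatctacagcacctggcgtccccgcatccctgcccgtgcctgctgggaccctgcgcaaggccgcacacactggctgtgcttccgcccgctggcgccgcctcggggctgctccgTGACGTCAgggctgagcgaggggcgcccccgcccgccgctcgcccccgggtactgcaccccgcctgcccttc
The full 8 letters begin 68 bases before the start of Scg2 and 72 bases before that of Chgb, so they occur in a granin with higher and a granin with lower mean signal in the arrays labelled TNF-/-. Scg5 and Chga hold the core alone, at 175 and 44 bases. Of the 41 genes examined, measured or not, 34 have a promoter in this table. Of these 34, 5 (14.7%) hold the full letters in the 250 bases, against 1.62% of 27025 genes: Scg2, Chgb, Cartpt, Sst and Ucn. The core, on either strand and including those within a full element, is in 18 of the 34 (52.9%) and in 17.9% of the 27025 genes. These 27025 are genes with a promoter in RefSeq. They are not the 19938 genes named on the arrays, and they were not matched to the members in any way. These are matches of letters, not measured binding sites.

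Scg2 encodes secretogranin II, the precursor of the peptide secretoneurin. Its log2 signal was 9.39, 9.48, 9.63 and 9.72 in the arrays labelled TNF-/-, against 9.19, 9.28, 9.30 and 9.28 in those labelled TNF+/+. Every array labelled TNF-/- lay above every TNF+/+ array. The difference was 0.29 ± 0.08 (SE; 95% interval 0.11 to 0.47), or 1.23-fold, and did not pass (limma, adjusted p = 0.283; exact two-sided permutation p = 0.0286 unadjusted, the smallest that 4 against 4 arrays can give). Scg5 encodes 7B2, a chaperone of the precursor-cutting enzyme PC2. It read 9.24, 9.27, 9.32 and 9.38 in the arrays labelled TNF-/- and 8.92, 9.22, 9.14 and 9.02 in those labelled TNF+/+. The groups again did not overlap, though the closest arrays were only a few hundredths apart, and the difference was 0.23 ± 0.07 (SE; limma, adjusted p = 0.358; exact permutation p = 0.0286).

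Chga and Chgb encode chromogranins A and B, the classic cargo proteins of dense core vesicles. Chga was 8.50, 8.33, 8.45 and 8.57 in the arrays labelled TNF-/-, against 8.23, 8.45, 8.79 and 9.00 in those labelled TNF+/+. Chgb was 8.90, 8.81, 8.94 and 9.09 in the arrays labelled TNF-/-, against 8.88, 8.94, 9.31 and 9.21 in those labelled TNF+/+. Both genes were brightest in TNF+/+ arrays 3 and 4, the arrays that stood apart on the first principal component, and the other TNF+/+ arrays lay within the range of the arrays labelled TNF-/- for Chgb. The differences were -0.16 ± 0.16 and -0.15 ± 0.11 (SE; limma, adjusted p = 0.736 and 0.632), and without TNF+/+ arrays 3 and 4 they were 0.12 and 0.02. Vgf, whose product is cut into peptides that act in energy balance, read 8.37, 8.20, 8.43 and 8.37 under TNF-/- and 8.51, 8.30, 8.73 and 8.47 under TNF+/+. Its groups overlapped, with a difference of -0.17 ± 0.10 (SE; limma, adjusted p = 0.566), or -0.0894 without TNF+/+ array 3. Scg3, which binds chromogranin A to the vesicle membrane, had the narrowest spread of the 40 members, 10.52 to 10.61 under TNF-/- and 10.53 to 10.57 under TNF+/+.

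**Figure D2:**
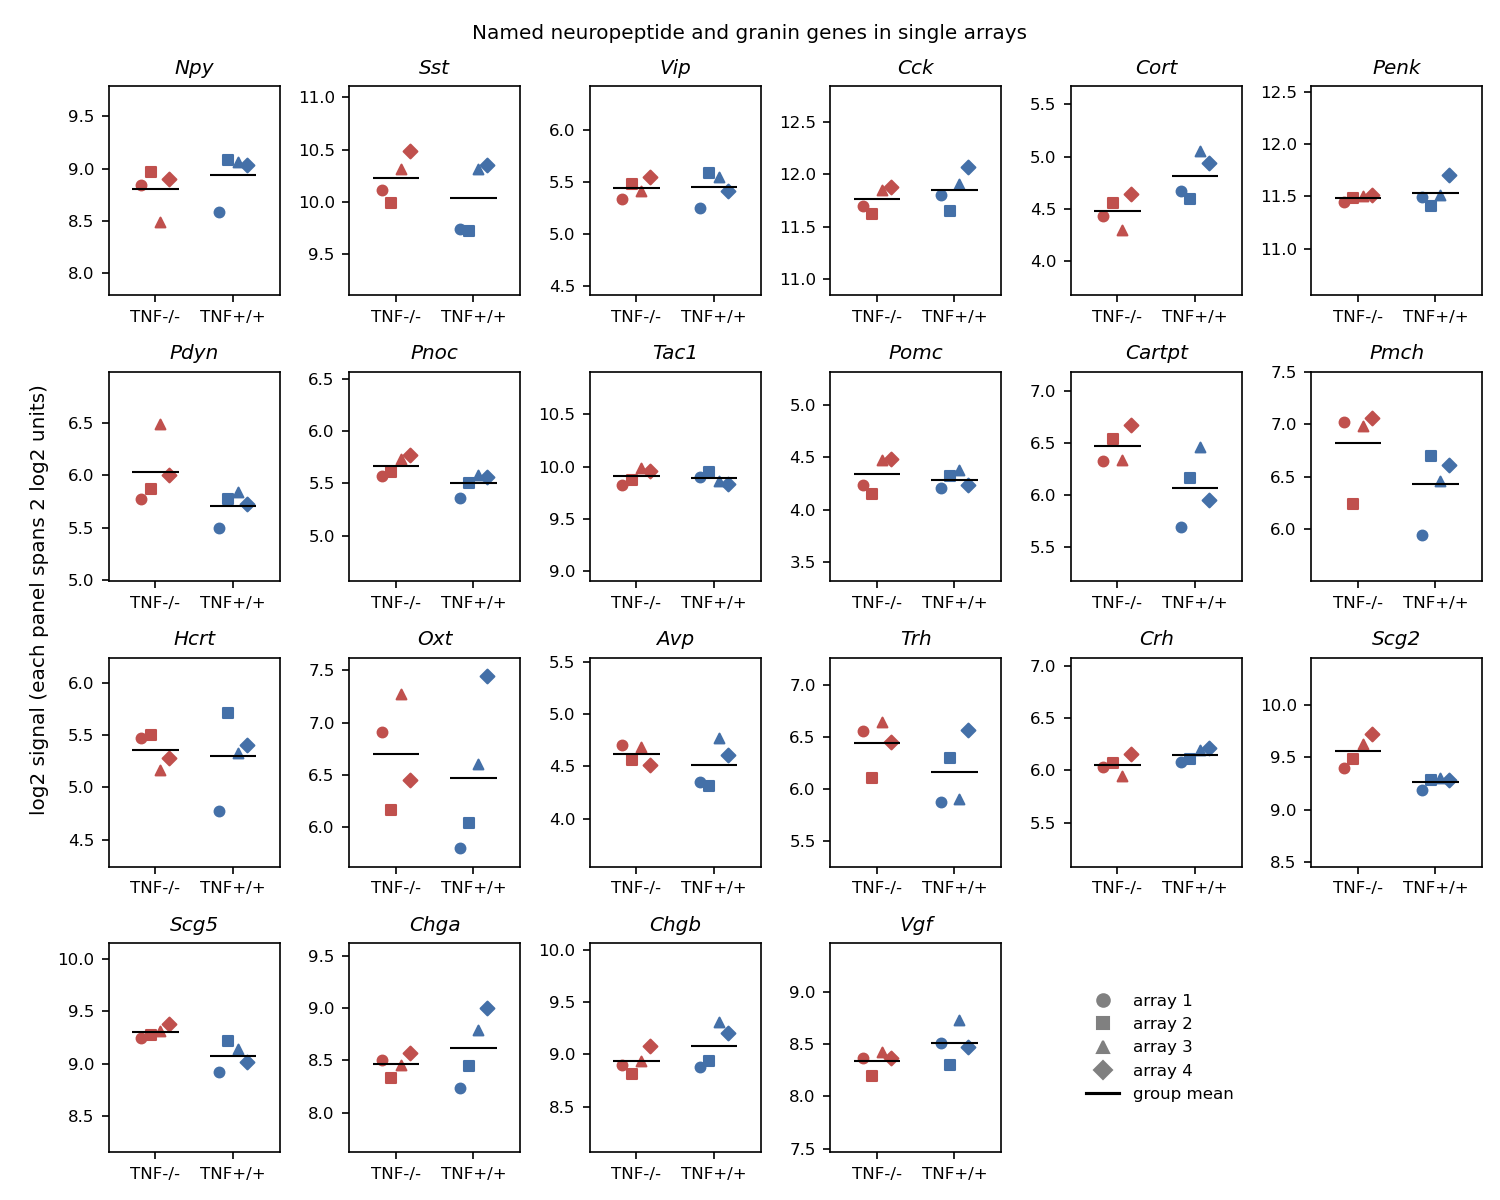
Log2 signal of 22 members in each of the 8 arrays, arrays labelled TNF-/- on the left and TNF+/+ on the right of each panel; marker shapes give the array number, black lines the group means, and every panel spans 2 log2 units. Scg2 and Scg5 are the panels with no overlap between the groups, Oxt has the widest scatter, and TNF+/+ array 1 (circle) is the lowest point for Oxt, Pmch, Hcrt, Trh, Cartpt, Pdyn and Chga among others.

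Among peptides of cortical and hippocampal interneurons, Cort, Npy, Sst, Vip and Cck all overlapped between the groups. Cort had the largest difference of these, with lower signal in the arrays labelled TNF-/-. Cort encodes cortistatin, a relative of somatostatin that binds the same receptors, and lay below the median probe set. It read 4.43, 4.56, 4.29 and 4.64 in the arrays labelled TNF-/-, against 4.67, 4.59, 5.06 and 4.94 in those labelled TNF+/+. Only TNF+/+ array 2 fell inside the range of the arrays labelled TNF-/-, and the difference of -0.34 ± 0.12 (SE; 95% interval -0.61 to -0.06) did not pass (limma, adjusted p = 0.388). TNF+/+ arrays 3 and 4 gave its 2 highest values, and leaving both out made the difference -0.15. Sst, the somatostatin precursor, was 10.12, 9.99, 10.31 and 10.49 under TNF-/- and 9.74, 9.73, 10.31 and 10.35 under TNF+/+. Its TNF+/+ arrays fell into a low pair, arrays 1 and 2, and a pair as bright as the arrays labelled TNF-/-, and the difference was 0.19 ± 0.18 (SE; limma, adjusted p = 0.71), with 0.09 to 0.30 when single arrays were left out.

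Npy encodes neuropeptide Y, which promotes feeding and dampens excitatory transmission. It read 8.85, 8.97, 8.49 and 8.90 in the arrays labelled TNF-/- and 8.58, 9.09, 9.07 and 9.03 in those labelled TNF+/+, so each group held a single low array, number 3 under TNF-/- and number 1 under TNF+/+. Cck, the cholecystokinin precursor, spanned 11.62 to 11.87 under TNF-/- and 11.64 to 12.07 under TNF+/+. Vip, the vasoactive intestinal peptide precursor, spanned 5.34 to 5.55 and 5.25 to 5.59. Their differences were -0.14 ± 0.14, -0.09 ± 0.10 and -0.00 ± 0.09 (SE; limma, adjusted p = 0.738, 0.758 and 0.992). That of Npy was -0.04 without TNF-/- array 3 and -0.26 without TNF+/+ array 1. For Vip the 95% interval, -0.20 to 0.20, leaves room for a shift of that size either way.

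Of the opioid and tachykinin precursors, Penk and Tac1, both abundant in the striatum, lay level between the labels. Penk, which encodes the enkephalin precursor, read 11.45, 11.48, 11.51 and 11.52 under TNF-/- and 11.49, 11.40, 11.51 and 11.71 under TNF+/+. Tac1, the precursor of substance P, read 9.83, 9.87, 9.99 and 9.96 under TNF-/- and 9.90, 9.95, 9.86 and 9.84 under TNF+/+. In both genes the groups lay on top of each other, with differences of -0.04 ± 0.07 and 0.02 ± 0.06 (SE; limma, adjusted p = 0.856 and 0.894). Markers of the striatum had list means of 7.81 to 8.04 under TNF-/- and 7.91 to 7.99 under TNF+/+ over 12 measured genes. Tac2, the neurokinin B precursor, spanned 5.85 to 5.94 and 5.70 to 5.96.

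Pdyn, the dynorphin precursor, read 5.78, 5.87, 6.49 and 6.00 in the arrays labelled TNF-/- and 5.49, 5.77, 5.84 and 5.73 in those labelled TNF+/+. TNF-/- array 3 was the highest and TNF+/+ array 1 the lowest, and the difference of 0.32 ± 0.15 (SE; limma, adjusted p = 0.49) was 0.17 without TNF-/- array 3. Pnoc encodes the precursor of nociceptin, the ligand of the opioid-like receptor Oprl1. It read 5.57, 5.60, 5.73 and 5.77 under TNF-/- and 5.37, 5.50, 5.58 and 5.56 under TNF+/+. Only TNF-/- array 1 and TNF+/+ array 3 crossed, by about a hundredth, and the difference was 0.17 ± 0.07 (SE; limma, adjusted p = 0.455; exact permutation p = 0.0571).

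Peptides of feeding and arousal included the largest positive differences, in Cartpt and Pmch, neither of which passed. Cartpt encodes the cocaine- and amphetamine-regulated transcript peptide, which reduces feeding. It read 6.33, 6.53, 6.34 and 6.67 in the arrays labelled TNF-/-, against 5.69, 6.16, 6.46 and 5.95 in those labelled TNF+/+. TNF+/+ array 3 reached into the range of the arrays labelled TNF-/- and the other 3 lay below it. The difference was 0.40 ± 0.16 (SE; 95% interval 0.04 to 0.76), or 1.32-fold, and did not pass (limma, adjusted p = 0.43); without TNF+/+ array 1 it was 0.27.

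Pmch encodes the precursor of melanin-concentrating hormone, and Hcrt that of the hypocretins, also called orexins; both are made in the lateral hypothalamus by separate neurons. Pmch read 7.02, 6.24, 6.98 and 7.06 under TNF-/- and 5.94, 6.70, 6.46 and 6.61 under TNF+/+. TNF-/- array 2 was low and apart from the other 3 of its label, so the groups overlapped, and the difference was 0.40 ± 0.22 (SE; limma, adjusted p = 0.552). It was 0.59 without TNF-/- array 2 and 0.24 without TNF+/+ array 1. Hcrt read 5.48, 5.50, 5.16 and 5.28 under TNF-/- and 4.78, 5.71, 5.33 and 5.40 under TNF+/+. Both the lowest and the highest array were TNF+/+, and the difference of 0.05 ± 0.18 (SE; limma, adjusted p = 0.936) was -0.13 without TNF+/+ array 1.

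Pomc, the precursor of melanocortins and beta-endorphin, lay below the median probe set. It read 4.24, 4.15, 4.48 and 4.49 under TNF-/- and 4.21, 4.32, 4.38 and 4.24 under TNF+/+, with a difference of 0.05 ± 0.09 (SE; limma, adjusted p = 0.864). The galanin gene Gal and Qrfp, a gene of an RFamide peptide, were dimmer still, with differences of 0.04 and -0.09.

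Of the neurohypophyseal and releasing hormones, 5 of 10 had positive and 5 negative differences, and none reached an unadjusted p under 0.05. Oxt, the oxytocin precursor, read 6.91, 6.16, 7.28 and 6.45 in the arrays labelled TNF-/- and 5.80, 6.04, 6.60 and 7.45 in those labelled TNF+/+. The highest and the lowest array were both TNF+/+ and 3.13-fold apart on the linear scale, so the scatter within that label exceeded any difference between labels (0.23 ± 0.37, SE; limma, adjusted p = 0.845). The difference was 0.00 without TNF+/+ array 1 and 0.55 without TNF+/+ array 4. Avp, the vasopressin precursor, lay below the median probe set and read 4.70, 4.56, 4.69 and 4.51 under TNF-/- and 4.35, 4.31, 4.77 and 4.61 under TNF+/+. Its 2 lowest arrays were TNF+/+ arrays 1 and 2, which were also the lowest of Oxt.

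Trh encodes the precursor of thyrotropin-releasing hormone and Crh that of corticotropin-releasing hormone, the starting points of the thyroid and stress axes. Trh read 6.56, 6.10, 6.64 and 6.45 under TNF-/- and 5.88, 6.30, 5.90 and 6.56 under TNF+/+, which overlapped (0.28 ± 0.18, SE; limma, adjusted p = 0.591). The Trh difference was 0.18 without TNF+/+ array 1 and 0.41 without TNF+/+ array 4. Crh read 6.03, 6.07, 5.95 and 6.16 under TNF-/- and 6.08, 6.11, 6.20 and 6.21 under TNF+/+. The Crh values differed by -0.10 ± 0.06 (SE; limma, adjusted p = 0.59), with 1 array labelled TNF-/-, array 4, above the lowest TNF+/+ arrays. Genes for growth hormone-releasing hormone (Ghrh), gonadotropin-releasing hormone (Gnrh1), kisspeptin (Kiss1), the urocortins (Ucn and Ucn3) and an RFamide precursor (Npvf) all lay below the median probe set, with differences between -0.05 and 0.09.

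Other peptide genes gave no difference at an unadjusted p under 0.05. Nts, the neurotensin precursor, spanned 6.18 to 6.49 under TNF-/- and 5.69 to 6.53 under TNF+/+, with a difference of 0.26 ± 0.17 (SE; limma, adjusted p = 0.6). Adcyap1, which encodes the peptide PACAP, spanned 6.16 to 6.90 under TNF-/- and 6.33 to 6.67 under TNF+/+. Grp, the gastrin-releasing peptide gene, spanned 6.12 to 6.45 and 6.07 to 6.74, and Nppc, which encodes C-type natriuretic peptide, 5.22 to 5.58 and 5.45 to 5.62. The dim genes Nmb, Nmu, Prok2 and Rln3 had means over the 8 arrays of 3.60 to 4.25. Over the 18 members not given array by array, differences ran from -0.09 to 0.26.

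Arrays of the same label scattered widely for many of these genes. The SD within groups, pooled over both labels, had a median of 0.13 over the members, beside 0.11 over all genes. Of the 40 members 12 (30%) were among the 5% of genes with the widest scatter (SD above 0.22): Oxt, Pmch, Hcrt, Sst, Trh, Nts, Cartpt, Chga, Pdyn, Adcyap1, Npy and Nmb, whereas Grp, with an SD of 0.22, lay just short of that line. Only 0.0702% of all genes had a wider scatter than Oxt and 0.381% a wider scatter than Pmch. The count did not rest on dim probe sets, being 10 of 25 members among genes above the median probe set, nor on single arrays, being 10 to 13 with each array left out in turn and 10 without TNF+/+ arrays 3 and 4. The measure was chosen after the values were seen. At the other end were Scg3, the dim genes Ghrh and Gal, and Tac1, with SDs of 0.04, 0.06, 0.06 and 0.06.

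**Figure D3:**
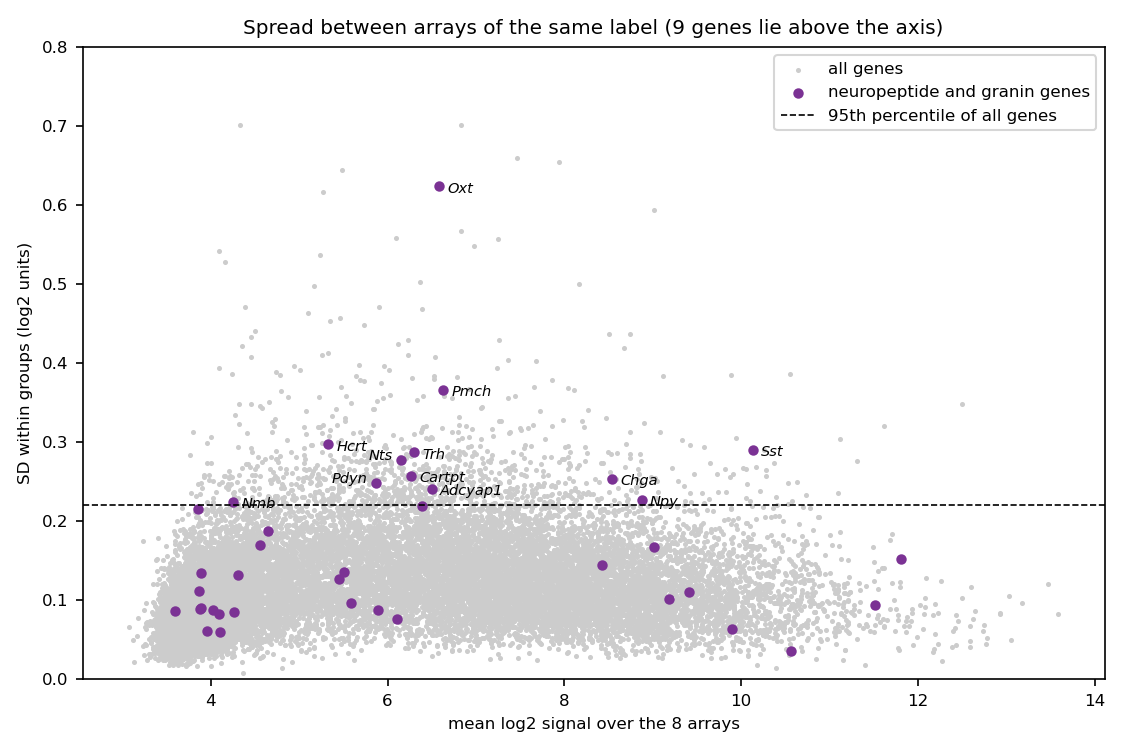
SD within groups (log2 units, pooled over both labels, 4 arrays each) against the mean log2 signal over the 8 arrays, for all 19938 genes (grey) and the 40 measured neuropeptide and granin genes (purple); the dashed line is the 95th percentile of all genes and 9 genes lie above the axis. The 12 labelled members lie above the line, Oxt and Pmch farthest.

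Single arrays held many of the extreme values. TNF+/+ array 1 held the lowest value of 15 of the 40 members (37.5%), beside 14.7% of all genes and 18.1% of genes above the median probe set. These were Oxt, Pmch, Hcrt, Trh, Nts, Cartpt, Chga, Pdyn, Vip, Scg2, Scg5, Pnoc, Gnrh1, Gal and Ghrh. It is the array with the high cerebellar markers, and it also had the lowest list mean of hypothalamus markers, 4.38, whereas the arrays labelled TNF-/- had 4.48 to 4.59 and the other TNF+/+ arrays 4.44 to 4.48. TNF-/- array 4 held the highest value of 10 members (25%), beside 13.8% of all genes. These were Pmch, Sst, Cartpt, Adcyap1, Rln3, Pomc, Scg2, Scg5, Pnoc and Npvf. The 4 members that were higher at an unadjusted p under 0.05 (limma), Cartpt, Pnoc, Scg2 and Scg5, are in both lists. Each was highest in TNF-/- array 4 and lowest in TNF+/+ array 1. TNF-/- array 4 had the highest mean of brainstem markers of the 8 arrays, 4.61. The other arrays labelled TNF-/- had 3.85 to 4.27 and the TNF+/+ arrays 3.97 to 4.30. The brightest of these markers in this array were Tph2, Slc6a4 and Slc6a5, at 6.87, 6.58 and 5.77. The other arrays had 4.02 to 6.66, 4.68 to 5.97 and 3.65 to 4.56, so of these Slc6a5 set the array apart most and Tph2 least. Only 2 of 10 measured brainstem markers and 5 of 19 hypothalamus markers lay above the median probe set.

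The hypothalamus markers, none of them a neuropeptide gene, did not behave alike. Of 19 measured, 7 had an unadjusted p under 0.05 (36.8%, beside 11.7% of all genes), 5 with higher and 2 with lower signal under TNF-/-, and limma called 0 at an adjusted p under 0.05. Hdc, the histamine-synthesising enzyme gene, was 4.62, 4.66, 4.92 and 5.05 under TNF-/- and 4.22, 4.35, 4.39 and 4.42 under TNF+/+ (limma, adjusted p = 0.222), whereas Otp, a transcription factor gene of the developing hypothalamus, was 5.62, 5.56, 5.60 and 5.66 under TNF-/- and 5.81, 5.95, 5.95 and 5.89 under TNF+/+ (limma, adjusted p = 0.151). Both were without overlap, in opposite directions. The mean of this list did not overlap between the labels, its lowest value being 4.478 under TNF-/- and its highest 4.477 under TNF+/+, so as a covariate it takes up part of the difference between labels by construction. With it in the fit, 0 members had an unadjusted p under 0.05, and the differences were 0.01 for Pmch, -0.34 for Oxt, 0.29 for Cartpt, 0.17 for Scg2 and 0.12 for Scg5. With the cerebellum list mean as a covariate instead, chosen after the values were seen, Oxt differed by -0.01, Pmch by 0.24, Cartpt by 0.28, Scg2 by 0.27 and Scg5 by 0.18, and 3 members had an unadjusted p under 0.05. List means of mature oligodendrocyte markers, 9.12 to 9.23 under TNF-/- and 9.26 to 9.56 under TNF+/+, did not overlap either. The same held for inhibitory neuron markers, 7.55 to 7.61 and 7.39 to 7.52, and for the dim pituitary markers. It held too for the neuropeptide receptor genes described below, 5.33 to 5.42 and 5.28 to 5.30. The part of these lists in the values of the members was not tested.

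**Figure D4:**
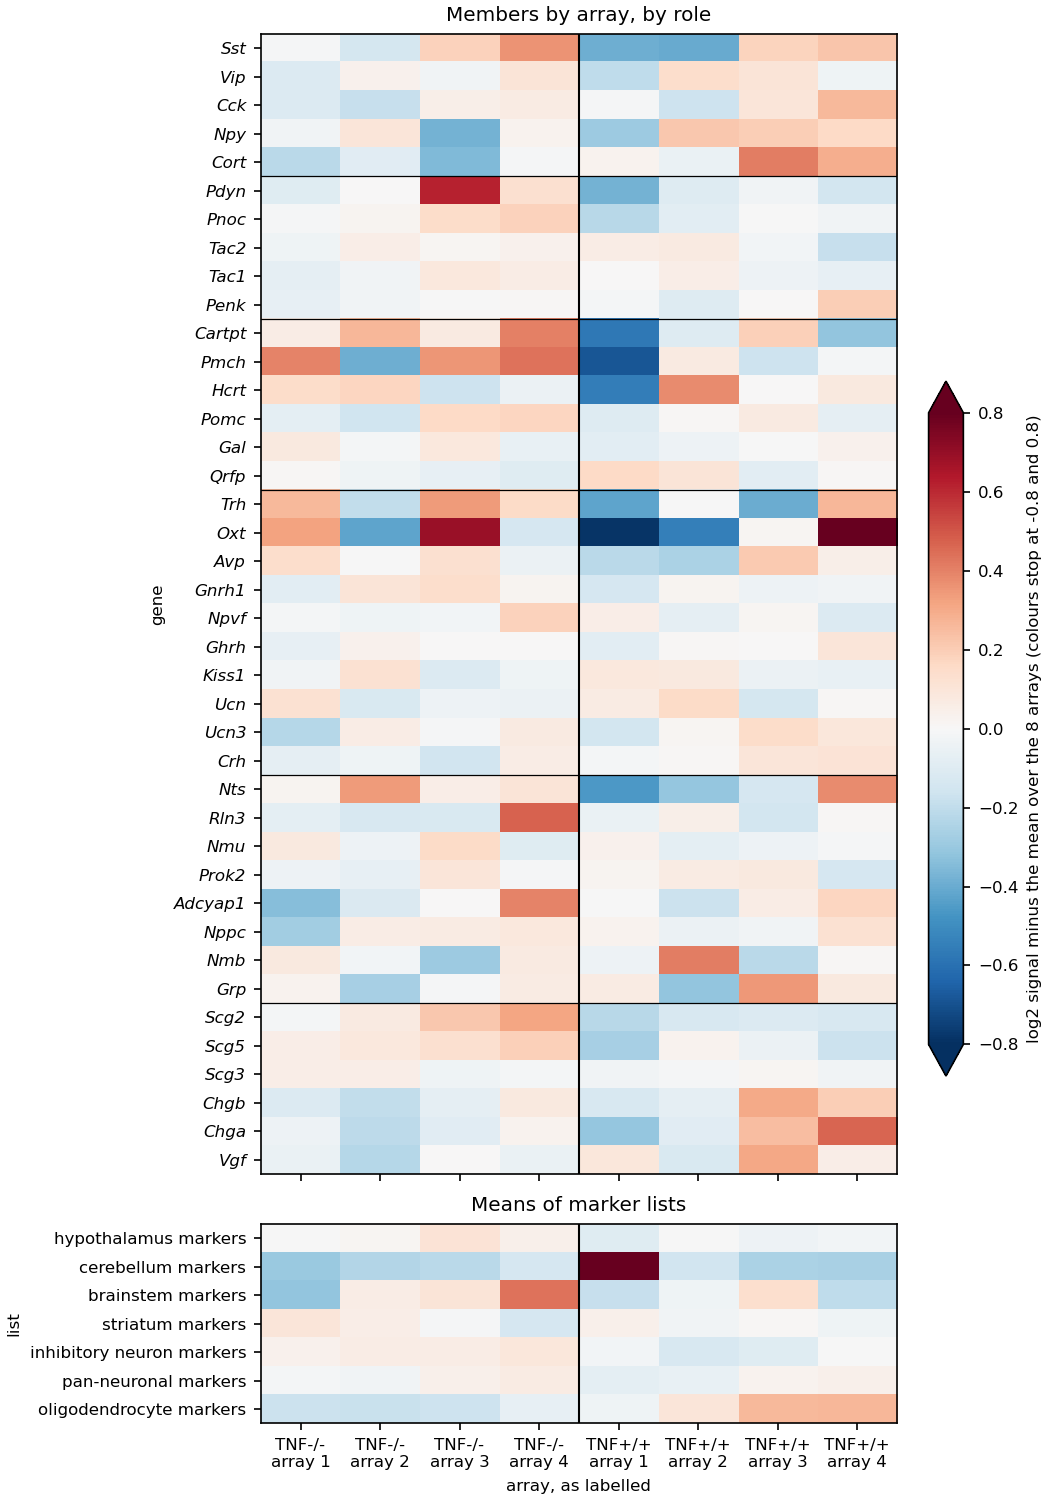
Log2 signal minus the mean over the 8 arrays for the 40 measured members (rows, grouped by role between black lines) and for the means of 7 marker lists (lower panel); columns are the arrays labelled TNF-/- on the left and TNF+/+ on the right, and colours stop at -0.8 and 0.8. TNF+/+ array 1 is blue for Oxt, Pmch, Hcrt, Cartpt, Trh and Nts and red for cerebellum markers, and TNF+/+ arrays 3 and 4 are red for Chga and Chgb.

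The signals of 8 pairs of members were set against each other over the 8 arrays. The pairs were picked after the values were seen, so their correlations are given as a description, with no test. Chga and Chgb had the highest, with Pearson's r of 0.88 and Spearman's rho of 0.86. Their r was 0.73 without TNF+/+ arrays 3 and 4, the 2 arrays farthest from the median of Chga, and 0.86 after group means were removed. Oxt and Avp, made in neighbouring magnocellular neurons, had r of 0.71 and rho of 0.71, with r of 0.85 without TNF-/- array 3 and TNF+/+ array 4. The other 6 pairs had r between -0.33 and 0.59. Sst and Cort, which differed in opposite directions between the labels, had r of 0.19, and 0.70 after group means were removed. Pmch and Hcrt had r of 0.41, and -0.28 without TNF-/- array 2 and TNF+/+ array 1.

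**Figure D5:**
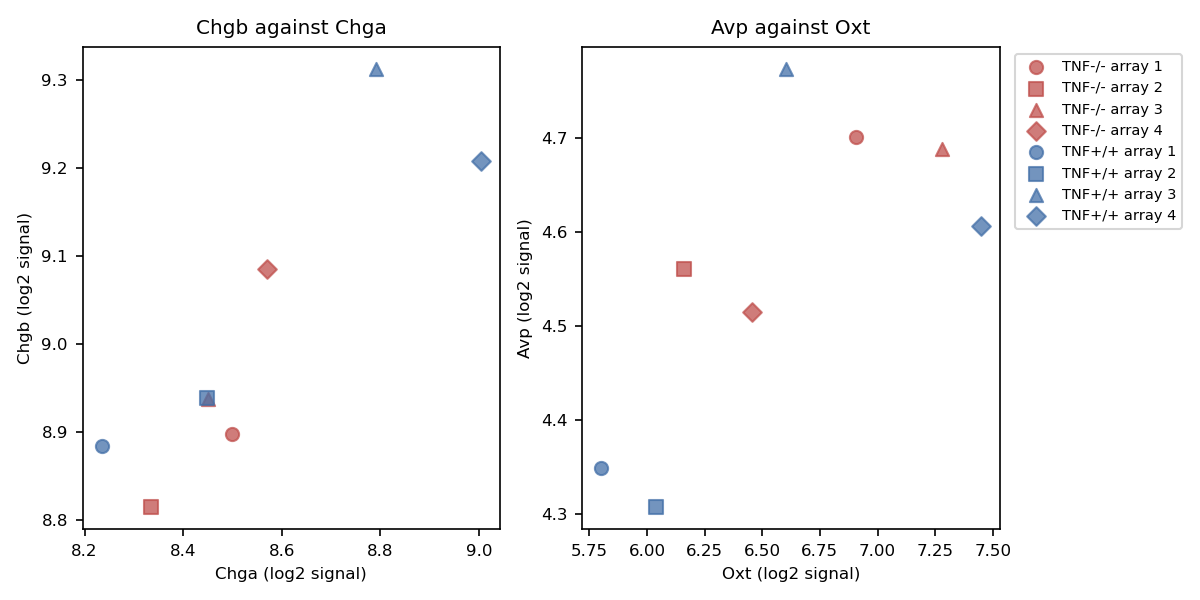
Log2 signal of Chgb against Chga (left) and of Avp against Oxt (right), 1 point per array, arrays labelled TNF-/- in red and TNF+/+ in blue with marker shape for the array number. TNF+/+ arrays 3 and 4 lie at the top right for the chromogranins, and TNF+/+ arrays 1 and 2 at the bottom left for Oxt and Avp.

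Genes that process the precursors and build dense core vesicles gave no call: limma called 0 of 18 measured at an adjusted p under 0.05, SAM called 0, and 3 had an unadjusted p under 0.05 (16.7%, beside 11.7% of all genes). Pcsk1, the precursor-cutting enzyme PC1/3, read 8.50, 8.68, 8.85 and 8.77 under TNF-/- and 8.52, 8.24, 8.29 and 8.57 under TNF+/+, with a difference of 0.29 ± 0.10 (SE; limma, adjusted p = 0.383). Ica1, a gene of vesicle traffic known as an islet autoantigen, read 8.39, 8.40, 8.64 and 8.20 under TNF-/- and 8.75, 8.76, 8.67 and 8.79 under TNF+/+, without overlap (-0.33 ± 0.09, SE; limma, adjusted p = 0.283). The trimming enzyme gene Cpe and the amidating enzyme gene Pam, which act after the cut, differed by -0.05 ± 0.05 and 0.08 ± 0.06 (SE). Qpctl, an enzyme gene for pyroglutamate ends, differed by 0.24 ± 0.09, and the vesicle priming genes Cadps and Cadps2 by 0.07 ± 0.05 and -0.16 ± 0.09 (SE), of which Cadps was without overlap.

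Of 51 neuropeptide receptor genes, 30 had higher and 21 lower signal under TNF-/-. Limma called 0 of 51 measured at an adjusted p under 0.05 and SAM called 0. An unadjusted p under 0.05 (limma) was seen for 11 (21.6%), beside 11.7% of all genes and 15.6% of genes above the median probe set. All 11 were higher, a direction seen afterwards. At that level 7.37% of all genes were higher, and 1309 of the 10674 genes above the median probe set. Without overlap were 7 receptors (13.7%), 6 higher and 1 lower, beside 7.66% of all genes and 8.82% of those above the median probe set. The median difference was 0.06, beside -0.01 over all genes and 0.05 over genes above the median probe set, where 25 of the 51 receptors lay.

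Npy2r, the presynaptic Y2 receptor gene of neuropeptide Y, had the largest difference of the receptors. It read 5.82, 6.15, 6.35 and 6.19 in the arrays labelled TNF-/-, against 5.42, 5.46, 5.69 and 5.31 in those labelled TNF+/+. Each array labelled TNF-/- lay above each TNF+/+ array, by 0.66 ± 0.12 on average (SE, 95% interval 0.37 to 0.94). The adjusted p was 0.151 over all probe sets (limma). With limma refitted on only the probe sets that carry a single symbol, it was 0.0462. That refit also lowered the unadjusted p, from 0.000579 to 0.000123 (limma). The ligand gene of Npy2r, Npy, differed by -0.14. Tacr3, the neurokinin B receptor gene, read 5.37, 5.62, 5.57 and 5.38 under TNF-/- and 5.27, 5.22, 5.13 and 5.19 under TNF+/+, while its ligand gene Tac2 differed by 0.03. The receptor genes of substance P (Tacr1), PACAP (Adcyap1r1), galanin (Galr1) and neurotensin (Ntsr1) were also without overlap, by 0.29, 0.17, 0.38 and 0.20. So was the relaxin-3 receptor gene Rxfp3, by -0.07 (limma, adjusted p = 0.267 to 0.599 over these and Tacr3). Galr1, Ntsr1 and Rxfp3 were dim, with means of 4.26, 4.52 and 4.19, below the median probe set.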

How the data were processed

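The authors deposited log2 signals of 35556 probe sets for 8 arrays, 1 per biological replicate. GCOS, GCRMA and Partek are listed, with neither role nor version, per the submitters' processing notes. No source used here names a genome build. The log2 scale follows from the values (2.83 to 14.1), which were used as deposited, with no filter. How the signals were normalized is therefore not known, and similar array medians (5.03 to 5.11) do not show that tissue content was equal. Groups and replicate numbers came from titles, and 0 value columns were unused.

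The platform annotation gave 21789 probe sets 1 gene symbol. Each gene was represented by its probe set with the highest mean. The test was limma's (lmFit and eBayes; limma 3.58.1, R 4.3.3), with Benjamini-Hochberg adjustment across the 35556 probe sets and 2.52 prior degrees of freedom; ± after a difference is limma's moderated SE. SAM was rebuilt with all 70 assignments of arrays. On simulated arrays with these means and spreads, changes of 0.5 were recovered by limma in 53% and changes of 1 in 92% of 100 probe sets each, and 7.64% of its calls were false. The simulated noise was independent between probe sets, with no shift shared across an array. The changed probe sets were drawn at random, and members scattered more (median SD 0.13, beside 0.11 over all genes). These rates may therefore not hold for the members.

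Members and lists were chosen with earlier results of these data known. Given array by array are the 10 members with the smallest p, those without overlap and others fixed by name, 22 in all; pathway genes followed a like rule. Same-numbered arrays had correlations of 0.07 to 0.11 in their deviations from group means over all probe sets. For numbers 1 and 2, but not 3 and 4, the same-numbered array was the best match across labels in both directions. Numbers were not taken as pairs, and a fit with the number as a block is given below. Promoters came from RefSeq (GRCm38.p6), the first listed per gene. Plots used matplotlib 3.10.9 in Python 3.11.15. Alternatives were other scaling, filters, variance models, covariates, SAM and leaving out arrays.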

Additional observations from a re-analysis of the deposited data

Results flagged for a closer look

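In 11 of 130 groups of 4 arrays the highest or lowest value was far from the rest, and chance gives about 6.5. Among neuropeptide genes these were Pmch in TNF-/- array 2 (6.24, against 6.98 to 7.06 in the others), Nppc in TNF-/- array 1 (5.22, against 5.56 to 5.58), Rln3 in TNF-/- array 4 (4.33, against 3.73 to 3.78), Npvf in TNF-/- array 4 (4.07, against 3.86 to 3.87) and Npy in TNF+/+ array 1 (8.58, against 9.03 to 9.09). Among receptor genes, Adcyap1r1 was high in TNF+/+ array 2 (8.41, against 8.29 to 8.31) and Rxfp3 in TNF+/+ array 4 (4.27, against 4.21 to 4.21). Among marker list means, oligodendrocyte markers were high in TNF-/- array 4 (9.23, against 9.12 to 9.13), astrocyte markers in TNF-/- array 3 (9.55, against 9.34 to 9.36) and in TNF+/+ array 4 (9.53, against 9.40 to 9.42), and cerebellum markers in TNF+/+ array 1 (6.46, against 4.65 to 4.76).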

How the results depend on the processing

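No alternative called a member: the count was 0 of the measured members under all 19 other settings, and the same held for processing genes. Receptor genes gave 1 call, Npy2r, with limma refitted on only the probe sets that carry a single symbol. Members at an unadjusted p under 0.05 numbered 5 as reported, 3 after quantile normalization, 3 without dim probe sets, 3 with the cerebellum list as a covariate, 0 with the hypothalamus list as a covariate, 9 without TNF+/+ arrays 3 and 4, and 3 to 6 with each array left out. Members without overlap numbered 2 as reported, 11 without TNF+/+ arrays 3 and 4 and 2 to 6 with each array left out; fewer arrays overlap less by construction. With the replicate number as a block 7 members had an unadjusted p under 0.05 and none passed. The shares of all genes were not computed under these alternatives, so the counts do not show whether members differ from other genes. Tnf differed by 1.39 with an adjusted p of 0.129 under the block, by 1.20 (0.497) with the hypothalamus and 1.39 (0.0951) with the cerebellum covariate, by 1.21 (0.216) without TNF+/+ arrays 3 and 4, and by 1.29 to 1.52 with each array left out, where adjusted p ran from 0.0321 to 0.114 and the call held in 1 of 8 fits, that without TNF+/+ array 2.

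Of the 22 members given array by array, 11 kept their direction under all settings, and 14 of 14 pathway genes did. Most of these pathway genes were picked for a small p or lack of overlap in these data, while many members were fixed by name. That choice favours a kept direction, so the shares cannot be compared. Reversed values were, without TNF+/+ arrays 3 and 4, Vip 0.0286, Cck 0.0399, Penk 0.0398, Tac1 -0.0148, Chga 0.12 and Chgb 0.0227; with the hypothalamus covariate, Pdyn -0.0811, Tac1 -0.0437, Pomc -0.10, Hcrt -0.11, Oxt -0.34 and Trh -0.0330; with the cerebellum covariate, Hcrt -0.12 and Oxt -0.0102; and with array weights, Vip 0.000894. With each array left out, Vip ran from -0.0703 to 0.0431, Penk from -0.0818 to 0.0194, Pomc from -0.000607 to 0.11 and Hcrt from -0.13 to 0.18. The cause was not tested. With 4 arrays per label, the number of arrays limits the precision; 15 of 40 members lay below the median probe set.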
